A study of Mus musculus with 12 samples.

Results

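The genes described here are 37 genes of proliferation and mitosis, the genes a cell uses to copy its DNA and to divide, measured in brain endothelial cells of old and young mice. They were taken by symbol from a table of 24015 genes, in which all 37 had a row, and were divided by role into 20 genes of G1 and DNA replication and 17 genes of mitosis. The study profiled RNA from endothelial cells, which line the blood vessels, sorted by flow cytometry from dissociated cortex and hippocampus of wild-type C57BL/6 mice. The mice were 19 months old in 6 samples (old) and 3 months old in the other 6 (young), no group received any treatment, and tissue of 2 mice was pooled for each sample. Whether the pools hold different animals and which markers the sort used is not in the labels, so a p-value here covers only the variation from sample to sample.

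A dividing cell passes from G1, in which cyclin D kinases release the E2F transcription factors, into S phase, in which DNA is copied, and then into mitosis. Before S phase the helicase subunits MCM2 to MCM7 are loaded on replication origins by CDC6 and CDT1, which is called licensing, and geminin, the product of Gmnn, binds CDT1 and blocks further loading until the cell has divided. Genes of S phase are known targets of E2F factors, whereas many mitosis genes are held down in resting cells by the DREAM complex, which acts through a promoter element called the CHR. Endothelial cells of the adult brain are known as a mostly resting population.

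The promoters of both classes differ in E2F sites and the CHR, known elements that were not used to choose the genes. RefSeq promoters (GRCm38.p6, 250 bases before to 50 after the start) were found for 31 of the 37 genes, 16 of replication (18 promoters) and 15 of mitosis (15 promoters), and were searched on both strands for E2F sites (TTTGGCGC, TTTCCCGC, TTTGCCGC or TTTCGCGC), the CHR (TTTGAA) and the CCAAT box (CCAAT). E2F sites on opposite strands can overlap each other. A gene was counted where at least 1 of its promoters held the motif. An E2F site was found for 7 of the 16 replication genes and for 1 of the 15 mitosis genes, Cdk1, against 2.6% of all 27025 genes with a promoter (2.3% of 32851 promoters). The CHR was found for 1 of 16 replication genes and 11 of 15 mitosis genes, against 20.2% of all genes (17.9% of promoters). A CCAAT box, with or without a CHR, was frequent in both classes. It was found for 10 of 16 replication and 13 of 15 mitosis genes, against 41.1% of all genes (37.4% of promoters). The CHR and a CCAAT box in the same promoter were found for 1 and 10, against 8.0% of all genes (7.0% of promoters). A match describes letters in a window and is not a measured binding site.

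Shown here are the 250 bases before the start of 2 replication genes with E2F sites and 3 mitosis genes with a CHR, of which Cdk1 holds both, with E2F sites, CHRs and CCAAT boxes in capitals. Mcm6 lies at chr1:128359706-128359955, minus strand, and Mcm5 at chr8:75109259-75109508, plus strand. Cdk1 lies at chr10:69352913-69353162, minus strand, Cdc20 at chr4:118437344-118437593, minus strand, and Top2a at chr11:99024190-99024439, minus strand. In Mcm6 and Mcm5 a pair of E2F sites on opposite strands overlap and form a single run of capitals.
Mcm6: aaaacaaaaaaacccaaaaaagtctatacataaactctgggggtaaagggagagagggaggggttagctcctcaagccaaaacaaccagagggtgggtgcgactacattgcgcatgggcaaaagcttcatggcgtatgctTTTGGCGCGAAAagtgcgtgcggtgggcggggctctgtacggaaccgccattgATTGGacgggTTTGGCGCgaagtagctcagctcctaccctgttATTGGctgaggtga
Mcm5: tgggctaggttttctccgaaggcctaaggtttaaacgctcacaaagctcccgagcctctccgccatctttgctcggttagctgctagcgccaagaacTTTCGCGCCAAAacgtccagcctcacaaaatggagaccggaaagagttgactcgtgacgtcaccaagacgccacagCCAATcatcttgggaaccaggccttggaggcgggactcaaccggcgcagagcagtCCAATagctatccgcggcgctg
Cdk1: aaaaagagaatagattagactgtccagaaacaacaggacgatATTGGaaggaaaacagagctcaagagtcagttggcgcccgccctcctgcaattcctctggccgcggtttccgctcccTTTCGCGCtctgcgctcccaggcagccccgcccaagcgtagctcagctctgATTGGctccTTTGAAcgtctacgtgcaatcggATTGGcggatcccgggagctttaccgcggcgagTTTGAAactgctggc
Cdc20: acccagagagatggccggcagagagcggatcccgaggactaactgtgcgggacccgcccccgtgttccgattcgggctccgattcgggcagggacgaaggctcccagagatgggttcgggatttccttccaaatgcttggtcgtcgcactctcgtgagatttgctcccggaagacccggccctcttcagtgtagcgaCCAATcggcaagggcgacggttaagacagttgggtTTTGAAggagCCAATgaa
Top2a: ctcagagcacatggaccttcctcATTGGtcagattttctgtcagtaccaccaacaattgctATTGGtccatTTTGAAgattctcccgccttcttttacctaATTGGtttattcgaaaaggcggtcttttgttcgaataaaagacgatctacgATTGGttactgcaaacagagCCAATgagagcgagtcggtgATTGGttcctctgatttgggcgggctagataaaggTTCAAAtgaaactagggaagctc

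Samples held 25809499 to 40393814 reads in genes, and a read was found for 13483 to 14685 genes in old and 13610 to 14762 in young samples. All 10 endothelial markers were present, with Cldn5 at a normalized count of 101210 to 146340. Their summed normalized count had a median of 760470 in old and 913860 in young samples. Cldn5 had similar medians (125720 and 124090), whereas Cdh5 ran from 9347 to 11965 in old and from 12549 to 15700 in young samples. Markers of other cells were low beside the endothelial ones and also differed between the ages. The summed normalized count of 8 astrocyte markers had a median of 10971 in old and 3117 in young samples, and that of 10 mural markers (pericytes and smooth muscle) 2599 and 7795. Old 3 (24973) and young 9 (17952) had the highest astrocyte sum of their age, and young 4 had the highest mural sum (18699). The 10 microglia and macrophage markers summed to 1516 to 2279 in old and 1319 to 1645 in young samples. Markers of neural precursors went both ways. Dcx was at 0 in all old samples and had a median of 0 and a highest value of 13.1 in young ones. The median of Sox11 was also higher in young samples (0.441 in old and 3.85 in young). Higher in old samples were the medians of Sox2 (170 and 19.0), Pax6 (16.9 and 6.61) and Dlx2 (7.37 and 0). The list's sum was carried by Nes, which endothelial cells also express and whose median was higher in young samples. Fewer cells of a type and less RNA per cell cannot be told apart in these pooled samples.

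Replication genes and mitosis genes stood at very different levels. Of the 20 replication genes 15 had a normalized count of at least 10 in all 12 samples, whereas of the 17 mitosis genes only Cdc20 and Aurka did. The median over genes of the mean normalized count was 567 for replication and 4.33 for mitosis genes. Per kilobase of exon, so that genes can be compared, the medians were 279 and 2.01. Ranked per kilobase among the 16843 genes with a read and a known length, the replication genes had a median percentile of 64.8 and the mitosis genes, without Aurkb, of 19.6. A mean normalized count of at least 10 was required for testing, and 16 replication and 6 mitosis genes passed it. Tk1 (mean 9.94) and Kif11 (9.69) lay just below it and Cdk1 (13.7) just above.

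**Figure D1:**
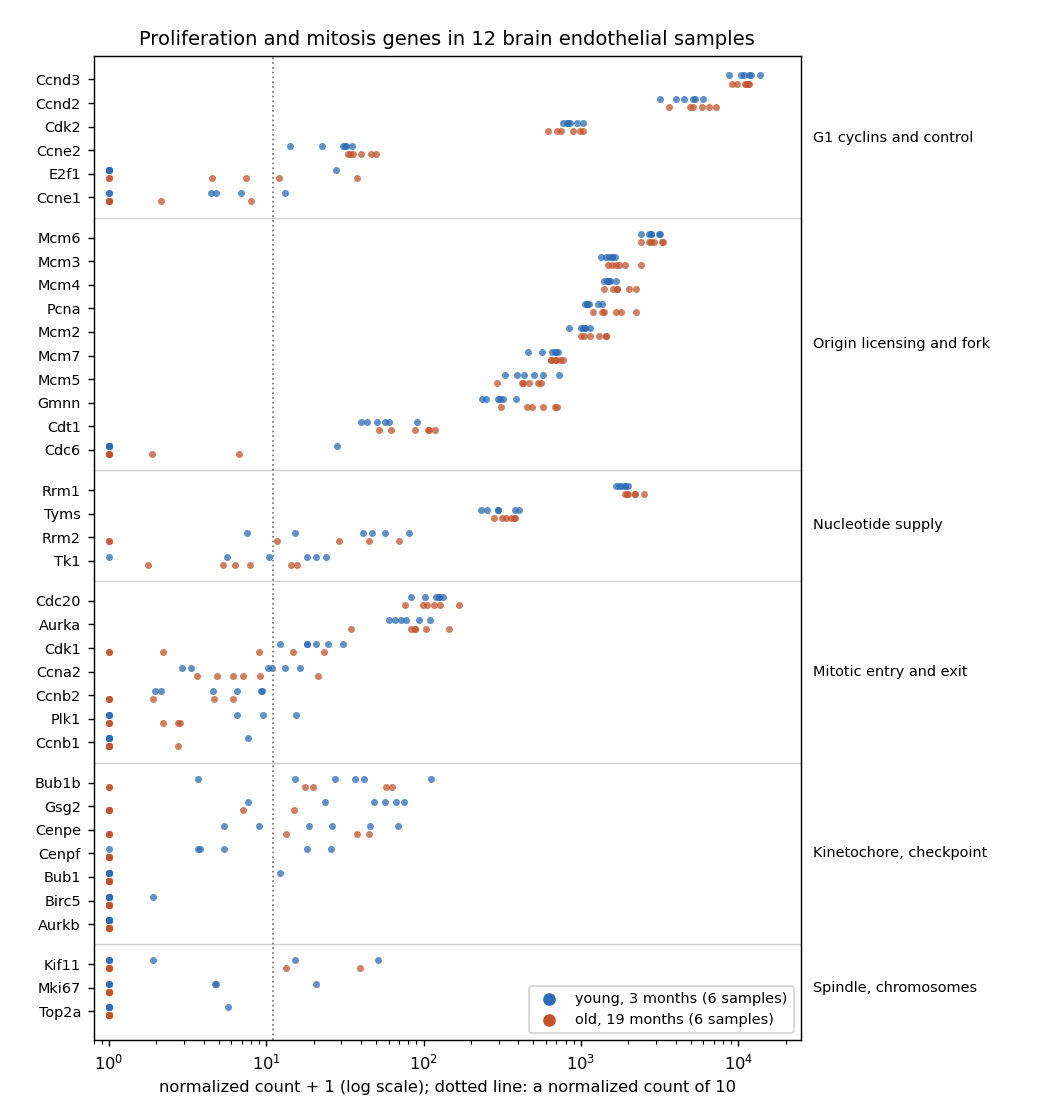
Normalized count plus 1 of each of the 37 genes (log axis) in 6 young (blue) and 6 old (red) samples, 1 point per sample, grouped by role; points at the left edge are samples without a read. The 15 replication genes to the right of the dotted line in every sample contrast with the mitosis genes, of which only Cdc20 and Aurka lie there in every sample.

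Among the G1 genes, the D-type cyclins were the most abundant members. Ccnd3 (cyclin D3) ran from 9129 through a median of 11108 to 11758 in old and from 8729 through 11311 to 13789 in young samples, and stood at 4493 per kilobase, the 97.7th percentile. The old samples lay within the young range. Ccnd2 (cyclin D2) ran from 3627 to 7258 (median 5532) in old and from 3187 to 5948 (median 4817) in young samples, and the groups overlapped. Their log2 differences, old minus young, were -0.06 (95% confidence interval -0.29 to 0.17) and 0.24 (-0.12 to 0.61), neither past the threshold. Cdk2, the kinase partner of cyclin E, averaged 830 ± 164 in the old and 871 ± 96.6 in the young (SD, 6 samples per age).

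The cyclins E that activate CDK2 at the start of S phase were far lower than the D cyclins. Ccne2 averaged 38.8 ± 6.89 in the old and 26.8 ± 7.90 in the young (SD, 6 samples per age), and its log2 difference of 0.56 did not pass (limma, adjusted p = 0.349). It overlaps 336 exon bases of Ints8 on the opposite strand, so that part of its reads cannot be told apart from that gene. Likewise, Ccnd3 overlaps 361 exon bases of Bysl and Ccnd2 372 of Gm43126. Ccne1 had 9 reads over the old and 23 over the young samples. E2f1, the E2F factor best known for driving S phase genes, had reads in 4 old samples and in 1 young sample, with the highest normalized counts in old 2 (36.9) and young 9 (26.8).

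All 6 subunits of the MCM helicase were present in every sample, at mean normalized counts of 471 (Mcm5) to 2872 (Mcm6). Per kilobase, Mcm6 was highest at 657 ± 70.8 (SD over 12 samples), followed by Mcm3 (547 ± 93.1), Mcm4 (459 ± 71.4), Mcm2 (333 ± 54.7), Mcm7 (224 ± 27.6) and Mcm5 (136 ± 33.8). Mcm6 lay above Mcm3, and Mcm3 above Mcm4, in 11 of 12 samples, and the later steps of this order held in 12 of 12. The order rests on annotated exon lengths, and Mcm7 overlaps exons of Ap4m1 and Cops6 on the opposite strand, whose reads cannot be told apart without strand.

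None of the MCM genes passed the threshold between the ages (limma, adjusted p from 0.229 to 0.898), where 6.94% of the 12777 genes tested were called. With edgeR 0 of 6 were called, where 6.05% of all genes were, and at an unadjusted p under 0.05 in limma 0 of 6, where 23.8% were. Mcm6 ran from 2395 to 3325 (median 2854) in old and from 2414 to 3206 (median 2781) in young samples, nearly the same range. Mcm3 ran from 1480 to 2422 (median 1715) in old and from 1344 to 1648 (median 1538) in young samples, with the highest value in old 7. The log2 differences of the 6 genes lay between -0.11 and 0.25 with a median of 0.19, beside a median of -0.01 over all genes tested. The widest interval among them, that of Mcm5, ran from -0.54 to 0.32, and the narrowest, that of Mcm6, from -0.19 to 0.25.

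The loading factors of the helicase differed from each other. Cdc6, which recruits the helicase to origins and is made anew by cycling cells, had a read in only 3 of 12 samples, with 27.0 in young 5, 5.77 in old 2 and 0.882 in old 1. Cdt1, its partner in loading, was found in every sample and ran from 51.4 to 117 (median 96.3) in old and from 39.2 to 89.9 (median 52.6) in young samples. Its log2 difference of 0.64 did not pass (limma, adjusted p = 0.215).

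Gmnn (geminin), the inhibitor of CDT1, rose in old samples. Its normalized counts were 454, 489, 573, 308, 700 and 688 in old 1, 2, 3, 4, 7 and 9, and 297, 248.8, 234, 320, 307 and 384 in young 1, 2, 3, 4, 5 and 9. Old 4 lay within the young range and the other 5 old samples lay above every young sample. Old samples averaged 535 ± 150 and young samples 298 ± 53.7 (SD, 6 samples per age), a log2 difference of 0.81 ± 0.20 (SE, limma, adjusted p = 0.0256; exact permutation p = 0.00649 before adjustment). With edgeR the adjusted p was 0.0201 and with DESeq2 0.00169. The call ended without old 7 (adjusted p = 0.056), old 9 (0.0546), young 2 (0.0573) or young 3 (0.061) in limma, and without old 7, old 9 and young 9 together (log2 difference 0.67, adjusted p = 0.0614). It also ended without old 7 and young 5, a setting chosen after seeing the data (log2 difference 0.73, adjusted p = 0.0911). The ratio of Gmnn to Cdt1 within a sample ran from 2.85 to 13.4 in old and from 3.31 to 7.46 in young samples, and the young ratios lay within the old range.

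Pcna, the sliding clamp that holds DNA polymerase on its template, was the highest licensing or fork gene per kilobase (918 ± 235, SD over 12 samples). Its normalized counts were 1195, 1409, 1353, 1662, 1812 and 2255 in old 1, 2, 3, 4, 7 and 9, and 1090, 1121, 1292, 1094, 1065 and 1367 in young 1, 2, 3, 4, 5 and 9. Of the old samples 4 lay above every young sample. The log2 difference of 0.44 (95% confidence interval 0.13 to 0.74) did not pass in limma (adjusted p = 0.0792) or edgeR (0.0703) and passed in DESeq2 (0.0323). Pcna has 2 named pseudogenes that could share its reads. Ccnd3, Tyms, Ccnb1 and Ccnb2 also have a named pseudogene, so the same limit holds for them.

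Enzymes of nucleotide supply split by subunit. Rrm1, the large and stable subunit of ribonucleotide reductase, averaged 2138 ± 227 in the old and 1841 ± 119 in the young (SD, 6 samples per age; log2 difference 0.21, limma, adjusted p = 0.184). Rrm2, its small subunit, which cells make in S phase, was at 28.2, 43.8, 0, 0, 10.8 and 68.5 in the old and 45.8, 55.7, 40.3, 14.3, 6.53 and 80.3 in the young samples, in the order given for Gmnn. Per kilobase Rrm1 stood at 498 and Rrm2 at 14.98. Tyms (thymidylate synthase) was at 341 ± 37.98 and 310 ± 69.2, whereas Tk1 (thymidine kinase 1), which supplies the same nucleotide by salvage and is made in S phase, had a mean of 9.94 over all samples. Tk1 overlaps 83 exon bases of Afmid on the opposite strand.

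In all, 1 of the 16 tested replication genes rose (Gmnn) and 0 fell, where 6.94% of all 12777 genes tested were called in either direction, 3.73% higher and 3.21% lower in old samples. With edgeR 1 of 16 was called, where 6.05% of all genes were, and with DESeq2 2, where 10.3% were. The log2 difference lay above 0 for 12 of the 16, with a median of 0.21, and for 48.9% of all genes tested. None of the 16 separated the ages without overlap, as 4.29% of all genes tested did.

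**Figure D2:**
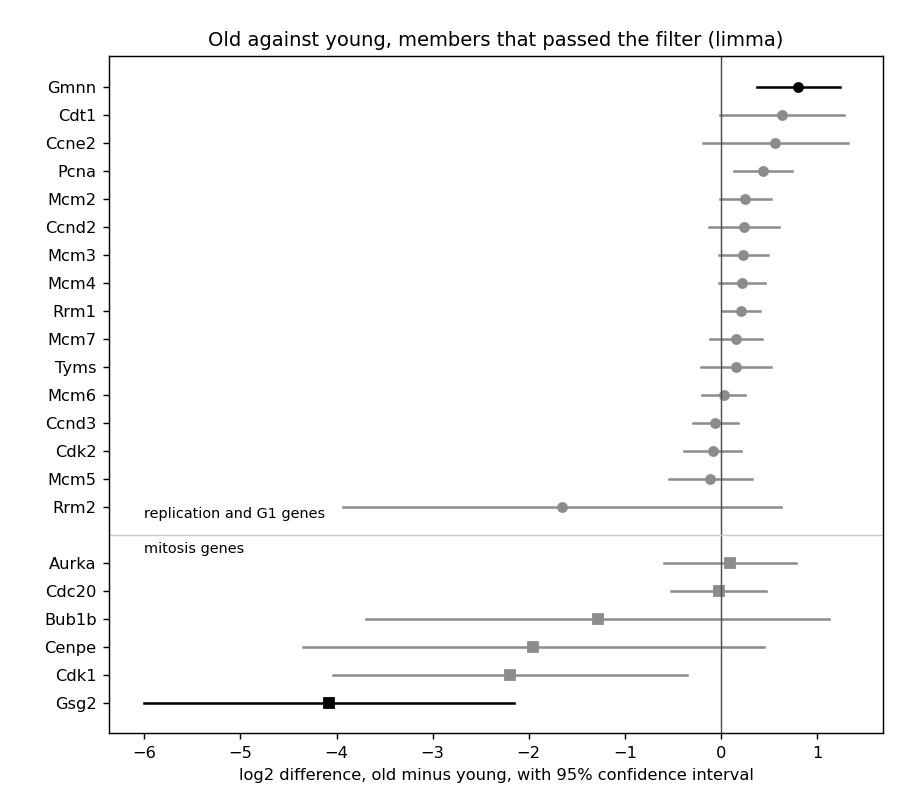
Log2 difference (old minus young, limma) with its 95% confidence interval for the 16 replication and G1 genes (circles) and 6 mitosis genes (squares) that passed the filter on low values; black marks an adjusted p under 0.05. Gmnn and Gsg2 are black, and the intervals of the low genes Rrm2, Bub1b, Cenpe, Cdk1 and Gsg2 are several times wider than those of the MCM genes.

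Mitosis genes were at or near the limit of detection, with exceptions. Cdc20, the activator of the anaphase-promoting complex, ran from 75.4 to 166 (median 110) in old and from 82.3 to 132 (median 122) in young samples, and at 63.6 per kilobase it was the highest mitosis gene. Aurka, the kinase of spindle poles, ran from 33.8 to 144 (median 87.4) in old and from 59.4 to 109 (median 73.7) in young samples. In both genes the young values lay within the old range. Their log2 differences were -0.02 (95% confidence interval -0.52 to 0.47) and 0.10 (-0.59 to 0.79). Cdc20 overlaps 53 exon bases of Elovl1 on the opposite strand.

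The cyclins and kinases that start mitosis were scarce. Cdk1, the kinase that drives mitotic entry, was at 7.94, 13.8, 1.22, 0, 0 and 22.3 in the old samples and at 19.8, 23.7, 17.3, 29.7, 11.2 and 17.2 in the young, in the same order. Every young sample had Cdk1 reads and 2 old samples had none, while old 9 and old 2 lay within the young range. Cdk1 averaged 7.54 in the old and 19.8 in the young, and passed the filter of 10 only through its young values. The log2 difference of -2.20 did not pass (limma, adjusted p = 0.135; edgeR, log2 difference -1.37, adjusted p = 0.378). Its partners were lower still: Ccnb1 (cyclin B1) had 2 reads over the old and 7 over the young samples, and Ccnb2 (cyclin B2) 10 and 27. Ccna2 (cyclin A2) had 48 and 49 reads and overlaps 378 exon bases of Exosc9 on the opposite strand, so that part of these reads cannot be told apart from that gene. Plk1, a kinase of mitotic entry and spindle assembly, had 5 reads over the old and 30 over the young samples.

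Genes of the chromosome passengers and of proliferation markers used in histology were absent from most samples. Aurkb, the kinase of the chromosomal passenger complex, had 0 reads among 397972888 in all samples, and a count of 0 allows up to 3 reads in that total. Birc5 (survivin), another member of that complex, had 1 read, in young 1. Top2a, the topoisomerase that untangles replicated DNA, had 4 reads, all in young 2. Mki67, which encodes the proliferation antigen Ki-67, was at 0 in all 6 old and in 3 young samples, and at 19.8, 3.73 and 3.83 in young 4, 5 and 9. With a floor of 3 reads over the old group, the young mean of Mki67 was at least 9.43-fold the old mean, and without young 4, left out after seeing the data, at least 3.12-fold. This limit covers the counting of old reads only and not the variation among young samples, and 18 of the 26 reads were in young 4. In a fit without the filter on low values Mki67 did not pass (limma, adjusted p = 0.2415, where 4.47% of 17064 genes were called).

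Gsg2 (haspin), the kinase that marks histone H3 at centromeres in mitosis, fell in old samples. Its normalized counts were 14.1, 0, 6.11, 0, 0 and 0 in the old samples and 55.7, 22.5, 47.2, 73.7, 66.2 and 6.70 in the young, in the order given above. Only young 9 lay within the old range. Old samples averaged 3.37 ± 5.80 and young samples 45.3 ± 25.9 (SD, 6 samples per age), from 21 and 267 reads. The old mean lay below the filter of 10, so the gene was tested only through its young values. The difference on the log2(value + 1) scale was -4.08 ± 0.90 (SE, limma, adjusted p = 0.0136; exact permutation p = 0.00433 before adjustment). With edgeR it did not pass (log2 difference -3.70, adjusted p = 0.0542) and with DESeq2 it did (0.00755). In limma the call ended without old 7 and young 5, a setting chosen after seeing the data (difference -3.68, adjusted p = 0.0658). The gene lies wholly inside Itgae, an integrin gene of lymphocytes on the opposite strand, with no shared exon bases. Itgae had 10 reads over the old and 37 over the young samples and was at 0 in 5 old and 2 young samples. Its normalized counts were 8.82 in old 1 and 5.39, 9.22, 19.8 and 4.66 in young 1, 3, 4 and 5. Young 4 was the highest young sample and old 1 the highest old sample in both genes. Young 2 and young 9, without Itgae reads, had the lowest young Gsg2 values. Those samples and old 3 had Gsg2 reads without Itgae reads. Whether the genes share reads was not tested.

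**Figure D3:**
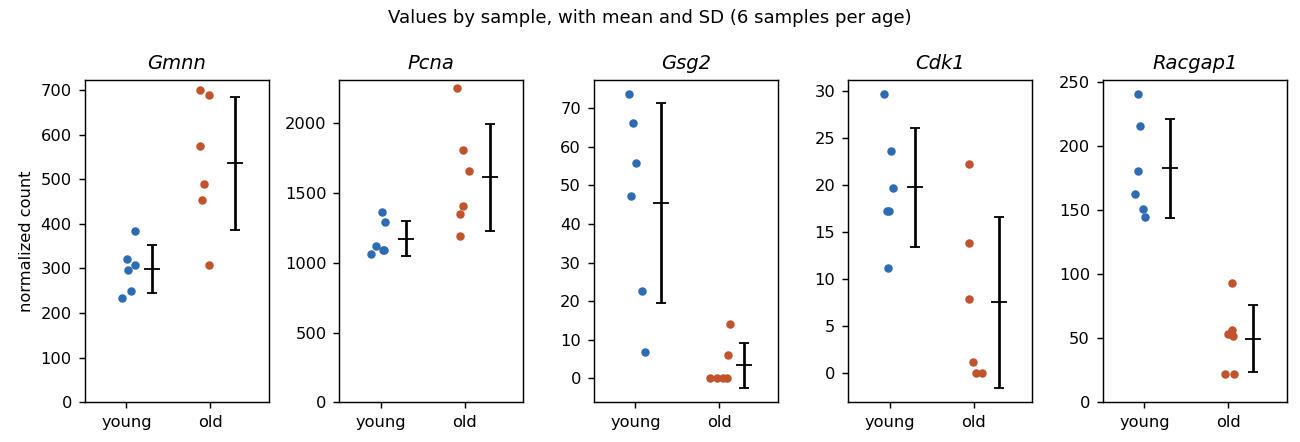
Normalized count in each sample (points) with mean and SD to the right of them, for 6 young and 6 old samples and 5 genes, each on its own scale. Gmnn and Pcna are higher in most old samples, Gsg2 and Cdk1 are at or near 0 in several old samples, and Racgap1 separates the ages.

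The remaining kinetochore and spindle genes came in some samples and not in others. Cenpf, a centromere protein of late cell cycle, had 0 reads in all old samples and 2.70, 24.9, 0, 4.40, 2.80 and 17.2 in the young, in the order given above. It fell below the filter, and in a fit without the filter it passed (limma, adjusted p = 0.0424, where 4.47% of 17064 genes were called), as it did in DESeq2 (0.0178). With a floor of 3 reads over the old group, the young mean of Cenpf was at least 17.9-fold the old mean, and without young 2, also left out after seeing the data, at least 11.2-fold. This limit, too, does not cover the variation among young samples. Bub1b, a kinase-like protein of the spindle checkpoint, ran from 0 to 62.3 (median 17.8) in old and from 2.70 to 111 (median 31.0) in young samples. Bub1, its paralog, had 12 reads, all in young 5.

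Of the motor proteins of the spindle and kinetochore, Cenpe was tested and did not pass the threshold, and Kif11 lay below the filter. Cenpe, the kinesin that moves chromosomes to the spindle equator, was at 12.3, 36.9, 0, 0, 43.8 and 0 in the old and 25.2, 17.8, 8.06, 4.40, 68.1 and 44.95 in the young samples (limma, adjusted p = 0.307). Kif11, the kinesin that separates spindle poles, was at 12.3 and 38.4 in old 1 and 7 and at 0.899, 14.2 and 50.4 in young 1, 2 and 5, and at 0 in the other 7 samples. Each of the 5 samples with Kif11 reads also had Cenpe reads, as did 9 of all 12 samples and all 6 young ones. Young 5 was highest in both genes and was the only sample with Bub1 reads. These patterns were picked out after seeing the values and were not tested.

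The number of mitosis genes with a read had a median of 6 in old and 11.5 in young samples. A read was found for 10, 6, 8, 5, 5 and 6 of the 17 genes in the old samples and for 12, 11, 8, 11, 12 and 12 in the young, in the order given above. Old 1 lay within the young range and old 3 at its lower end. The normalized counts of the 17 genes summed to 209 to 344 (median 270.4) in old and 291 to 475 (median 359.8) in young samples, and old 2 and old 3 lay within the young range. Cdc20 and Aurka carried much of this sum, and without these 2 genes, left out after their values were seen, the other 15 summed to 23.0 to 115 (median 75.2) in old and 103 to 267 (median 171) in young samples, and old 2 lay within the young range. Over the same samples 16 to 20 replication genes had a read in old and 17 to 18 in young. This count could hardly move, since 15 of the 20 replication genes had a read in every sample. Over all genes, the number with a read had a median of 13801 in old and 14213 in young samples. These are descriptions without a test. The endothelial, astrocyte, mural and microglia marker sums given above also moved with age, and their part in these counts was not tested.

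**Figure D4:**
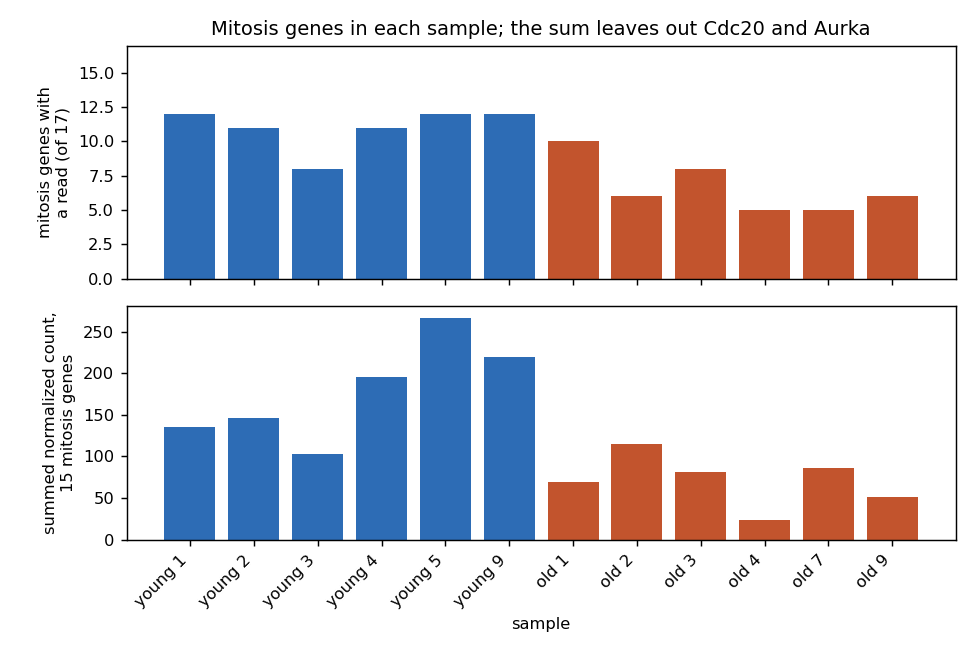
Number of the 17 mitosis genes with at least 1 read (top) and summed normalized count of 15 of them, without Cdc20 and Aurka (bottom), in each young (blue) and old (red) sample. The numbers run from 8 to 12 in young and from 5 to 10 in old samples, and the sums from 103 to 267 and from 23.0 to 115.

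Of the 6 mitosis genes tested 0 rose and 1 fell (Gsg2), where 6.94% of all genes tested were called in either direction and 3.21% were lower in old samples. With edgeR 0 were called, where 6.05% of all genes were. With DESeq2 2 of the 17 were called (Gsg2 and Cenpf, the latter below the filter used for limma), where 10.3% of all genes were. Of the 11 not tested, 10 had at least 1 read, and the mean normalized count was higher in young samples in each of the 10, beside 50.2% of the 4287 genes below the filter that had a read. The same held for 3 of the 4 untested replication genes. In the further list of 73 mitosis genes described below it held for 14 of 21 untested genes with a read. No read in any old sample was found for 5 of the 10 (Bub1, Birc5, Cenpf, Top2a and Mki67), beside 21.7% of those 4287 genes. For 15.8% of the 4287 no read was found in any young sample. Most means of the 10 rest on few reads, from 1 read for Birc5 to 131 for Kif11, and no difference other than that of Cenpf passed without the filter.

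Other genes of the same pathways were counted from lists not chosen by direction. These lists were made with earlier results of these data known, so they are not an independent check. Of 43 tested genes from a list of 44 for DNA replication (origin recognition, polymerases, clamp loader, histone supply) 0 rose and 0 fell in limma, where 6.94% of all genes tested were called. With edgeR 0 were called, where 6.05% were, and 4 had an unadjusted p under 0.05 in limma, as 23.8% of all genes tested did. The nearest was Chaf1b, a subunit of the chromatin assembly factor, which averaged 167 ± 47.02 in the old and 96.6 ± 33.4 in the young (SD, 6 samples per age; limma, adjusted p = 0.12). The log2 difference lay above 0 for 34 of the 43, with a median of 0.11. Over all genes tested these values were 48.9% and -0.01. Of 15 tested genes from a list of 16 for G1 control 0 rose and 0 fell in limma (6.94% of all genes) and 0 were called by edgeR (6.05%), with 2 at an unadjusted p under 0.05 (23.8%). The nearest was E2f3, an E2F activator, with a log2 difference of -0.98 (limma, adjusted p = 0.155).

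Of 49 tested genes from a list of 73 for mitosis and cytokinesis 0 rose and 1 fell. Among all genes tested 6.94% were called, 3.21% of them all as lower in old samples. The log2 difference lay above 0 for 14 of the 49, with a median of -0.31. Over all genes tested these values were 48.9% and -0.01. Before adjustment 10 of the 49 lay under 0.05 in limma, beside 23.8% of all genes tested. With edgeR 1 was called, where 6.05% of all genes were, and with DESeq2 2, where 10.3% were. Racgap1, a GTPase activator of the central spindle that is needed to cut daughter cells apart, was the gene that fell. Its normalized counts were 52.9, 21.9, 51.3, 22.1, 92.96 and 56.5 in the old samples and 216, 150, 241, 180, 145 and 163 in the young, in the order given above. Every young sample lay above every old one. The log2 difference was -2.01 ± 0.34 (SE, limma, adjusted p = 0.00279; edgeR, adjusted p = 0.00604), and the adjusted p stayed between 4.33e-06 and 0.00924 over 23 alternatives.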

How the data were processed

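RNA was measured by SMART-seq v4 and Nextera XT libraries in 12 samples. The deposited table holds, per its name, normalized counts: a signal per gene and sample that the authors made, and per the submitters' processing notes the build was mm9 and the tools were STAR 2.4.2a, FastQC 0.11.2, Cuffdiff 2.2.1 and R 3.2.2, with no role stated. The counter and its annotation were not given in the sources used here. Both kits leave strand unmarked. Each deposited column was made of whole multiples of 1 step (100% of values whole within 0.001), which gave back reads per gene. Reads carry no molecular identifiers, so floors cover counting error only.

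Values were tested as log2(value + 1) with limma 3.58.1 in R 4.3.3 (age as the only term, variance trend), over the 12777 genes with a mean of at least 10, with Benjamini-Hochberg adjustment and a threshold of 0.05; edgeR 4.0.16 (quasi-likelihood) and DESeq2 1.42.0 on the recovered reads were alternatives. Differences are on this scale, and for the low genes Rrm2, Cdk1, Bub1b, Cenpe and Gsg2 they were larger than edgeR's. All 3 tools were tested on simulated data. Permutation tests were exact and two-sided. Samples of the same age differed beyond sampling noise (lowest chi-square per degree of freedom 34.0). Levels per kilobase used exon lengths from GENCODE M21 (GRCm38), found for 37 of 37 genes; promoters came from RefSeq.

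The members and lists were chosen with earlier results of these data known. Genes given in full were those called by limma or edgeR, the highest per kilobase in each role, Itgae, and the listed genes with the smallest p; the other members named with their values were chosen after these were seen. Other settings were pseudocounts, filters, scalings, samples left out (singly, and old 7, old 9 and young 9 together, which an earlier analysis of these data had set apart) and the title number as a block.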

Additional observations from a re-analysis of the deposited data

Results flagged for a closer look

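Within an age, 1 sample stood far from the other 5 in 15 of 67 gene and age groups with any spread, where chance gives about 1 in 20 for normally distributed values. In each the far sample was the highest. In old samples these were old 1 for Ccne1 (7.06, the next 1.15) and Ccnb1 (1.76), old 2 for E2f1 (36.9, the next 11.1) and Cdc6 (5.77), old 4 for Ccna2 (20.3, the next 8.07) and old 7 for Kif11 (38.4, the next 12.3), as normalized counts. In young samples, young 9 was far above the others for Bub1b (111, the next 40.7), E2f1 (26.8, the next 0) and Ccnb1 (6.70, the next 0), and young 5 for Kif11 (50.4, the next 14.2), Cdc6 (27.0, the next 0) and Bub1 (11.2, the next 0). Young 4 stood apart for Mki67 (19.8, the next 3.83), young 2 for Top2a (4.74) and young 1 for Birc5 (0.899), the last 2 with no read in any other sample.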

How the results depend on the processing

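Over 22 tested members and 23 alternatives, 475 of 506 values kept their direction and side of the threshold. The call on Gmnn ended in 7 alternatives (log2 difference 0.67 to 0.96 over all 23, adjusted p 0.00169 to 0.0911) and that on Gsg2 in 3 (-4.74 to -2.57, adjusted p 0.00676 to 0.0658); Pcna passed in 2, DESeq2 and without old 1 (adjusted p = 0.0415). Genes called numbered 887, or 1407 by DESeq2, 553 to 1225 with a sample left out (553 without young 4) and 612 with the title number as a replicate block over the 10 samples that share one, against 473 in the same 10 without the block, a comparison added after seeing the data. In both of these 10-sample fits 0 replication and 0 mitosis members passed (with the block, Gmnn at an adjusted p of 0.08 and Gsg2 at 0.059). Replication members called were 2 by DESeq2, 0 to 2 with a sample left out and 0 without old 7, old 9 and young 9; mitosis members were 2 by DESeq2 and 2 without a filter (Gsg2 and Cenpf each time), and 0 by edgeR. Same-numbered samples did not deviate together (correlations -0.16 to 0.098), so the numbers were not taken as pairs.

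Differences near 0 changed sign in 19 values of 5 genes, none past the threshold. Under quantile normalization Ccnd3 was at 0.083 and Aurka at -0.18, and Cdc20 was at 0.0099 by edgeR and 0.0023 by DESeq2. Mcm6 was at -0.012 in both 10-sample fits and -0.028 without old 7, old 9 and young 9. With a sample left out, Ccnd3 ranged from -0.13 to 0.0030, Mcm5 from -0.22 to 0.012, Mcm6 from -0.018 to 0.082, Aurka from -0.062 to 0.35 and Cdc20 from -0.14 to 0.088. Depth limits the mitosis genes most, 11 of which had a mean normalized count under 10.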
